A study of Drosophila melanogaster with 12 samples.

Results

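The genes of the *Drosophila* sex determination pathway were examined here in adult males that lack *Mettl16*, an RNA methyltransferase gene. Members were taken by name. They are *Sxl*, *tra*, *tra2*, *dsx*, *fru*, *ix*, *her* and *snf*, which make 8 of the 21076 genes and 57 of the 37520 isoforms in the deposited tables. They also hold 31 of the 21991 m6A peak rows of *Mettl16* mutants and 4 of the 3088 rows of the peak comparison between genotypes.

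In fly females, X-linked signal elements switch on *Sxl*, whose RNA-binding protein directs the splicing of its own RNA and of *tra* RNA. Tra protein with Tra2 then directs the female splicing of *dsx* and *fru*. In males Sxl and Tra proteins are absent and default splicing gives the male forms of *dsx* and *fru*. The pathway is a classical setting for m6A, since the writer complex and its nuclear reader Ythdc1 help Sxl to splice its own RNA in females.

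In MeRIP-seq, an antibody against m6A pulls down (IP) fragments of poly(A) RNA, which are sequenced alongside the RNA before capture (input). There were 12 libraries, with 3 input and 3 IP libraries for each of 2 genotypes. Mutants were homozygous for *Mettl16 1-9*, a frameshift made with CRISPR/Cas9 in the first exon, and are viable and sterile. Controls were *w1118*. Each preparation used whole bodies of about 50 adult males. The labels do not say whether replicates came from separate cultures, so p-values measure the spread between these preparations. In whole-fly RNA, fewer cells of a type and less RNA per cell cannot be told apart.

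The input libraries held 5.32 to 6.48 gigabases of aligned sequence, and 17763 to 18106 genes were above 0. *Mettl16* itself, listed as CG7544, was at 0.971, 0.824 and 1.19 FPKM (fragments per kilobase of transcript, scaled to library size) in *w1118* and at 0.430, 0.285 and 0.232 in the mutants. The male label was met by *roX1*, a male-specific RNA of dosage compensation, at 64.2 to 72.2 FPKM, while 10 eggshell genes summed to 2.08 to 4.20 FPKM and *Cp16* and *Vm32E* were at 0 in all 6 input libraries. Markers of male reproductive tissue moved with genotype. The summed level of 10 spermatocyte genes was 87.1 to 95.0 FPKM in *w1118* and 59.5 to 66.2 in mutants, with 7 lower by the test. For 10 spermatid genes it was 2612 to 2891 against 1906 to 2116 with 8 lower, and for 10 accessory gland genes 4624 to 5150 against 2667 to 3140 with 10 lower. Of 10 fat body markers, 4 were higher and 1 lower, and their sum was 681 to 703 FPKM in *w1118* and 840 to 929 in mutants. That sum leans on single genes, since *Lsp2* went from a mean of 110 to 330 FPKM and *tobi* from 105 to 8.25. The median log2 change of the 10 was -0.05. Of 10 muscle markers 3 were higher (7039 to 8768 against 8555 to 9419), and of 10 neuronal markers 2 were (161 to 197 against 188 to 196). Over all genes tested, 22.9% were higher and 26.7% lower by the same test. With a replicate block in the fit, 0 muscle and 0 neuronal markers were called, while the spermatocyte, spermatid, accessory gland and fat body counts did not change. The part of these tissues in the results that follow was not tested.

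The levels of the 8 genes were close between genotypes. None passed the test (limma on log2(FPKM + 1), Benjamini-Hochberg adjusted p under 0.05), where 49.6% of the 13866 genes tested did. At an unadjusted p under 0.05 by limma there was 1, *ix*. At least 49.6% of all genes tested were under it, since adjustment never lowers a p. Fold changes ran from 0.879 to 1.18 and the median log2 change was 0.05, against 0.01 over all genes tested. All 8 genes were above the 0.5 FPKM that a gene needed to be tested. In the plot of levels by library, *snf* had the highest gene FPKM and *fru* the lowest.

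**Figure D1:**
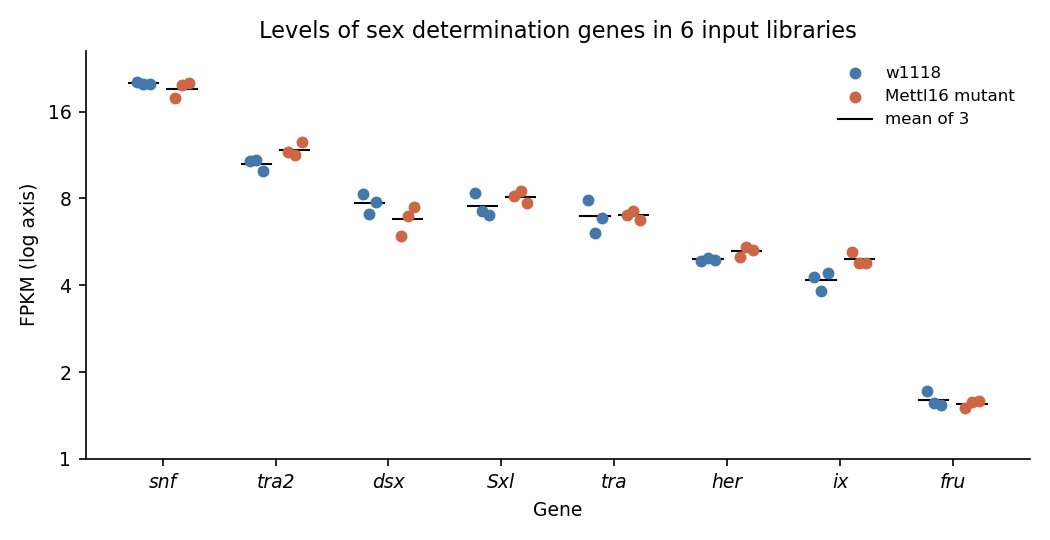
FPKM of the 8 genes in the 6 input libraries on a log axis. Points are libraries (blue *w1118*, orange *Mettl16* mutants) and bars are means of 3; *snf* lies near 20 FPKM and *fru* near 1.6 in both genotypes.

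*Sxl*, the master switch of the pathway, lies on X:7074550-7098053 on the minus strand. Its level was 8.37, 7.23 and 7.01 FPKM in *w1118* and 8.12, 8.51 and 7.69 in *Mettl16* mutants. The groups overlapped, and the log2 change was 0.10 (SE 0.08, 95% confidence interval -0.08 to 0.28, adjusted p = 0.337 by limma). About 1253 to 1640 read pairs per library lay behind these values, as derived from coverage and length.

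*snf* (X:5309242-5310501, plus strand) encodes a protein of the U1 and U2 snRNPs that Sxl needs to splice its own RNA. It was at 20.3, 20.0 and 19.9 FPKM in *w1118* and at 17.8, 19.7 and 20.2 in mutants. Mutant replicates 1 and 2 were below all *w1118* values and replicate 3 was not, and the log2 change was -0.06 (SE 0.06, interval -0.20 to 0.08, adjusted p = 0.450 by limma).

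*tra* (3L:16590059-16591050, minus strand), the splicing factor gene directly under Sxl, was at 7.92, 6.08 and 6.86 FPKM in *w1118* and at 6.98, 7.21 and 6.75 in mutants. The 3 mutant values lay within the *w1118* range (log2 change 0.01, SE 0.09, interval -0.20 to 0.22, adjusted p = 0.931 by limma). The 3' end of *tra* overlaps *l(3)73Ah* on the opposite strand by 74 bases.

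*tra2* (2R:14602004-14604337, minus strand), the partner of Tra that both sexes express, was at 10.8, 10.9 and 9.99 FPKM in *w1118* and at 11.5, 11.3 and 12.6 in mutants. All mutant values were above all *w1118* values, a mean ratio of 1.12. The log2 change was 0.15 (SE 0.06, interval -0.0019 to 0.30), and the adjusted p by limma was 0.0923. Only when libraries were scaled to the same upper quartile did *tra2* pass (log2 change 0.22, adjusted p = 0.0169 by limma).

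*dsx*, which encodes the sex-specific DM-domain transcription factors at the end of the somatic branch, lies on 3R:7924323-7967408 on the minus strand. It was at 8.30, 7.08 and 7.76 FPKM in *w1118* and at 5.94, 6.96 and 7.45 in mutants. Mutant replicates 1 and 2 were below all *w1118* values and replicate 3 was not. The log2 change was -0.17 (SE 0.09, interval -0.38 to 0.05, adjusted p = 0.168 by limma).

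*fru* (3R:18414273-18545586, minus strand), known for its male proteins in courtship neurons, was at 1.71, 1.56 and 1.54 FPKM in *w1118* and 1.50, 1.57 and 1.59 in mutants. The groups overlapped, with a log2 change of -0.03 (SE 0.08, interval -0.21 to 0.15, adjusted p = 0.789 by limma).

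*ix* (2R:11359437-11360163, minus strand) encodes a Mediator subunit that acts with the female Dsx protein. It was at 4.27, 3.82 and 4.40 FPKM in *w1118* and at 5.22, 4.77 and 4.77 in mutants. Every mutant value was above every *w1118* value, a mean ratio of 1.18 and the highest among the 8 genes. The log2 change was 0.20 (SE 0.07, interval 0.03 to 0.37), with an unadjusted p of 0.0276 and an adjusted p of 0.0547 by limma. With upper quartile scaling it was 0.26 (adjusted p = 0.0206 by limma). The gene is short and 59.9 to 79.6 read pairs per library lay behind its values.

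*her* (2L:16677185-16679691, plus strand), a zinc finger gene with a role upstream of *Sxl* and in the control of yolk protein genes, was at 4.86, 4.99 and 4.90 FPKM in *w1118* and at 5.01, 5.42 and 5.32 in mutants. The groups did not overlap, but the log2 change was 0.08 (SE 0.06, interval -0.06 to 0.22, adjusted p = 0.317 by limma). The 3 mutant values were apart from the 3 *w1118* values for 3 of the 8 genes, *tra2*, *ix* and *her*, where this held for 60.3% of all genes tested. In all 3 the mutants were higher, as they were for 29.7% of all genes tested.

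**Figure D2:**
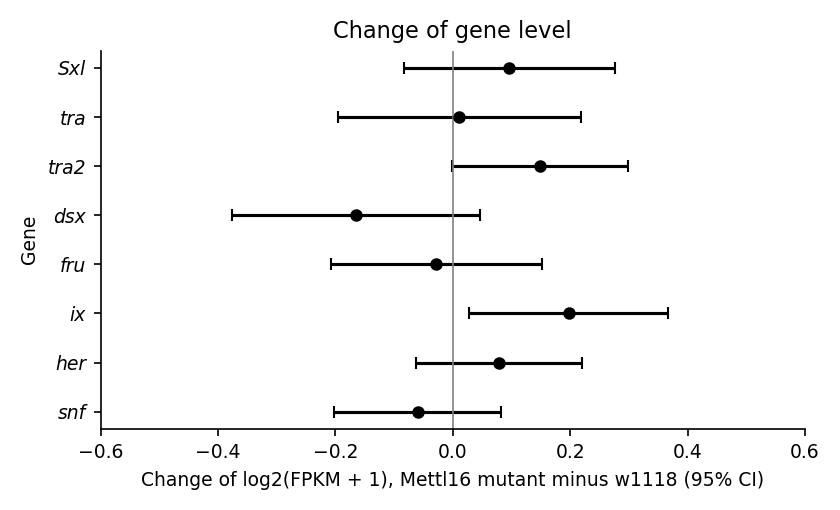
Change of log2(FPKM + 1) between *Mettl16* mutants and *w1118* for each gene, with its 95% confidence interval from limma (n = 3 per genotype). Estimates run from -0.17 (*dsx*) to 0.20 (*ix*), and only the interval of *ix* leaves out 0.

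The order of levels depends on the length used, that of the gene or that of each isoform. By gene FPKM over the 6 input libraries, *snf* (mean 19.6 FPKM) stood above *tra2* (11.2), which stood above *Sxl* (7.82), *dsx* (7.25) and *tra* (6.97), then *her* (5.08) and *ix* (4.54), and last *fru* (1.58). The values of *Sxl* and *dsx*, of *dsx* and *tra*, and of *her* and *ix* overlapped, while the other neighbours in this order did not. By the summed FPKM of isoforms, each over its own length, *Sxl* was at 17.4 to 21.0, overlapping *snf* at 17.8 to 20.3. *tra2* was then at up to 16.2, *dsx* at 10.8 to 14.3, *tra* at 6.09 to 7.99, *fru* at 6.07 to 7.17, *her* at 5.08 to 6.13 and *ix* at 3.82 to 5.22. On this scale *fru* was above *ix*. Neighbours overlapped here, except that *Sxl* and *snf* were above *tra2*, and *dsx* above *tra*.

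The genes whose log2 levels followed *Sxl* most closely over the 6 input libraries, among 8713 genes averaging 5 FPKM or more, were *oxt* (Pearson r 0.9905), *Spec2* (0.989) and *Pxd* (0.988). For *snf* they were *Trax* (0.987), *CG10029* (0.983) and *Uggt* (0.981). With 6 libraries that share their depth and tissue, 94 genes had an r above 0.9 with *Sxl* and 51 with *snf*.

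The pathway turns on splicing, so isoforms were compared by their share of the summed isoform FPKM of their gene. *ix* and *snf* have 1 isoform each in the table. The other 6 genes have 55, of which 40 could be tested. By limma on the arcsine square root of the share, 1 of the 40 changed (adjusted p under 0.05 and a change of over 5 percentage points), where 3.95% of the 18896 isoforms tested did. The shares did not overlap between genotypes for 5 of the 40, against 25.4% of all tested. The assignment of read pairs to isoforms is an estimate, and 25 of the 57 isoforms were at 0 in 1 or more libraries.

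The isoform that changed was *Sxl* FBtr0336728, which has 8 exons and 2068 nt. It was at 2.49, 2.28 and 2.64 FPKM in *w1118* and at 1.02, 0.884 and 0.863 in mutants. All mutant values were below all *w1118* values. Its share fell from 13.3% to 4.70% of *Sxl* (adjusted p = 0.0393 by limma). The call did not hold when any 1 of the 6 libraries was left out (adjusted p 0.0881 to 0.127, change -9.27 to -7.67 percentage points) or with a replicate block (adjusted p = 0.198).

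FBtr0336728 is one of 10 *Sxl* isoforms whose 3' end is at 7084164, the first of 6 annotated 3' ends along the gene. FBtr0336727, with the same start and number of exons, ends 1243 bases further on and is 1249 nt longer. It was the most abundant *Sxl* isoform, at 5.39, 5.30 and 5.43 FPKM in *w1118* and 6.98, 6.21 and 5.87 in mutants. Its share was 29.0% in *w1118* and 32.3% in mutants (adjusted p = 0.653 by limma), and the shares overlapped.

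Grouping all *Sxl* isoforms by 3' end, a comparison chosen after the data were seen, gave values with no overlap at the first pair of ends. The first end held 19.2, 20.1 and 19.5% of *Sxl* in *w1118* and 11.8, 12.0 and 10.5% in mutants (19.6% ± 0.46 against 11.4% ± 0.79, SD, n = 3). The next end, at 7082921 with 6 isoforms, held 43.6, 41.6 and 44.5% in *w1118* and 49.9, 53.0 and 50.1% in mutants. The mutants were below *w1118* at the first end and above it at the next. The mean change at the first end was -8.15 percentage points and that of FBtr0336728 alone was -8.61, so this is not a second result. FBtr0331260, with the same start, end and number of exons as FBtr0336728, rose from 1.67% to 3.26% (adjusted p = 0.380 by limma). At the next end FBtr0331249 rose from 10.4% to 15.5% (adjusted p = 0.369 by limma). The shares of both were without overlap. In a limma fit over the 7369 3' ends that could be tested in all genes, 3.39% were called and none of the 15 in these genes. At an unadjusted p under 0.05 there were 4, the *Sxl* ends at 7084164 and 7082921 and the *fru* ends at 18415473 and 18418716. Shares within a gene sum to a fixed total, so ends of one gene are not independent. The share of all ends at that threshold, or without overlap, is not given. Neither the 4 ends nor the lack of overlap can therefore be set against a background. The adjusted p was 0.0706 for the first *Sxl* end and 0.272 for the next. The first passed only in genes with a summed level of at least 5 FPKM (adjusted p = 0.0471 by limma).

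Other *Sxl* ends varied among replicates. The last end, at 7074550, is used by 1 isoform of 5964 nt, FBtr0331258, and held 22.9, 18.1 and 15.2% in *w1118* and 16.5, 19.3 and 19.6% in mutants. The end at 7076710 held 3.31 to 19.7% in *w1118* and 15.7 to 21.3% in mutants. The end at 7075665 reached 13.2% in *w1118* replicate 3 and was at most 0.55% elsewhere, so that this library stood apart. The most upstream start held 74.9% of *Sxl* in *w1118* and 75.5% in mutants. None of the 13 start sites tested in these genes was called in the same kind of fit, where 3.02% of 7653 were called. Nor was any of the 13 at an unadjusted p under 0.05. Which *Sxl* isoforms carry the male-specific exon, whose inclusion gives the short male open reading frame, could not be read from the table, so no male or female share of *Sxl* is given.

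**Figure D3:**
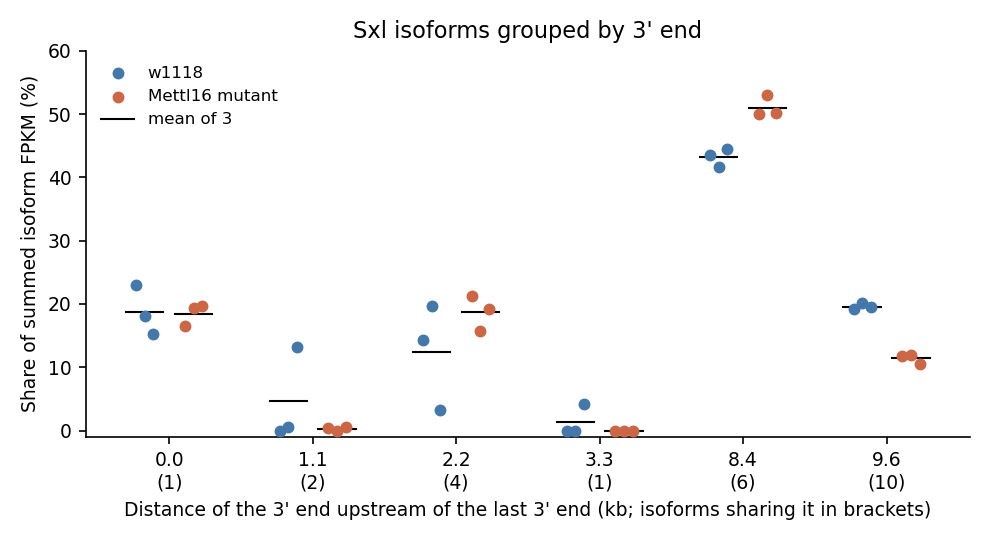
Share of summed *Sxl* isoform FPKM (%) at each of the 6 annotated 3' ends, ordered by distance in kb upstream of the last end. Points are libraries and bars are means of 3; at 9.6 kb the mutants lie near 11% and *w1118* near 20%, and at 8.4 kb the mutants lie above *w1118*.

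The 2 *tra* isoforms share their start, end and number of exons and differ by 175 nt. In flies the longer form comes from the default splice site that both sexes use, and the shorter one from the splice site used when Sxl is present. The shorter form, FBtr0075364, was at 0.317, 0.0626 and 0 FPKM in *w1118* and 0.0491, 0.0870 and 0.129 in mutants. That is 3.97, 1.03 and 0% of *tra* against 0.70, 1.20 and 1.91% (exact two-sided permutation test p = 0.9; the smallest p that 3 against 3 libraries allow is 0.1). Estimates of 0 to 4.45 read pairs per library stood behind the shorter form, so a difference in this share was not detectable at this depth.

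The male form of *dsx* ends with the last exons of the gene, and the female form ends earlier, at a female exon. The 3 isoforms that end at 7924323, with the male structure, held 53.7, 64.5 and 64.0% of *dsx* in *w1118* and 64.4, 64.5 and 60.7% in mutants. The 3 isoforms that end earlier held the rest, 46.3, 35.5 and 36.0% in *w1118* and 35.6, 35.5 and 39.3% in mutants (exact permutation p = 0.7). Nearly all of this was FBtr0339710, a 4-exon isoform of 6941 nt, at 6.59, 4.57 and 5.14 FPKM in *w1118* and 3.80, 4.53 and 5.12 in mutants. It matches FBtr0081760 in start and number of exons and ends 3314 bases further on, and the 2 isoforms with the earlier female-type end at 7934482 held at most 0.59% in any library. The assignment rests on the ends alone, and the table does not show how the coverage was spread along FBtr0339710.

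Among the male-type *dsx* isoforms the values moved in opposite ways by start site, without passing the test. FBtr0330073, from the downstream start at 7962786, was at 4.25, 4.71 and 5.43 FPKM in *w1118* and at 1.54, 4.19 and 1.38 in mutants, where replicates 1 and 3 were low and replicate 2 was near *w1118*. Its mean share was 34.5% against 19.2% (adjusted p = 0.319 by limma). FBtr0330074, from the upstream start, was at 2.15, 1.79 and 1.93 FPKM in *w1118* and 3.59, 2.32 and 4.19 in mutants. Its share was 14.0% against 27.7% with no overlap (unadjusted p = 0.0246, adjusted p = 0.199 by limma). The last 169 bases of *dsx* overlap *lds* on the opposite strand.

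The *fru* transcripts from the most distal start, at 18545586, are those spliced by sex. The 7 isoforms from it held 43.2, 27.0 and 42.1% of *fru* in *w1118* and 30.7, 19.8 and 28.1% in mutants, and the groups overlapped (exact permutation p = 0.3). The Benjamini-Hochberg adjusted p was 0.9 for each of the *tra*, *dsx* and *fru* shares over these 3 tests. Of 2 distal isoforms with the same start, end and exon number, the longer FBtr0083642 was at 0 in all 6 input libraries, and FBtr0083643, shorter by 1601 nt, was at 1.32, 0.203 and 0.471 FPKM in *w1118* and at 0, 0 and 0.590 in mutants. FBtr0083641, also from the distal start, was at 0.531, 1.07 and 0.491 FPKM in *w1118* and at 0, 0 and 0.285 in mutants. Its shares did not overlap (mean 9.95% against 1.46%, unadjusted p = 0.0162, adjusted p = 0.159 by limma).

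**Figure D4:**
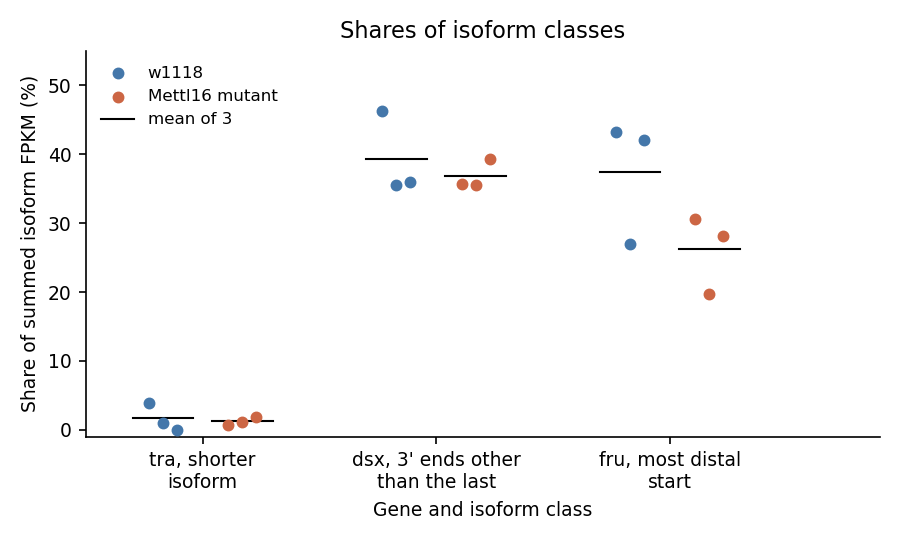
Share of summed isoform FPKM (%) in the shorter *tra* isoform, the *dsx* isoforms that end before the last 3' end and the *fru* isoforms from the most distal start. Points are libraries and bars are means of 3; the *tra* share is under 4%, and genotypes overlap in all 3 classes.

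For *tra2*, the main isoform was FBtr0089616, with 1 exon fewer and 232 nt more than FBtr0089615 and the same start and end. It was at 6.11, 7.99 and 5.74 FPKM in *w1118* and 7.04, 7.82 and 9.53 in mutants, a mean share of 48.3% against 53.1% (adjusted p = 0.720 by limma). FBtr0089620, from the upstream start, had a mean share of 24.5% against 15.6% (adjusted p = 0.372), and the other 5 isoforms had adjusted p of at least 0.778. The 2 *her* isoforms differ by 308 nt at the 3' end. The shorter held 66.3, 80.9 and 72.7% in *w1118* and 10.2, 89.2 and 41.7% in mutants, a spread in the mutants (SD 39.8 points) that was wider than the difference between means (adjusted p = 0.608 by limma).

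m6A peaks of *Mettl16* mutants were called on 3 replicates pooled, and no spread between replicates can be given for them. Of the 31 peaks, *fru* had 13, *Sxl* 6, *dsx* and *her* 4 each, *tra2* 2, *tra* and *snf* 1 each and *ix* none. The deposited FDR was under 0.05 for 30 of them, and 0.0631 for the *fru* peak at 3R:18415352-18415412. It was under 0.05 for 20678 of all 21991 peak rows. Among the 31, 61.3% were annotated to 3' UTRs and 29.0% to 5' UTRs, where 60.8% and 19.3% of all peak rows were. Their median log2 enrichment of IP over input was 2.15, against 2.32 for all peaks.

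The strongest enrichment was in 5' UTRs of the long genes. A *fru* peak at 3R:18447252-18480606 had a log2 enrichment of 5.24, above 99.4% of all peaks. The *Sxl* peak at X:7097637-7098053, at the most upstream start, had 4.68 and was above 98.0%. The *dsx* peak at 3R:7960497-7966988 had 4.25 and was above 95.2%. The *fru* and *dsx* spans are longer than most of their isoforms and therefore include introns.

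Among peaks annotated to 3' UTRs, *Sxl* had those at X:7074550-7075718 (log2 enrichment 3.88), X:7081021-7084055 (3.87) and X:7076526-7077334 (2.84). The peak at X:7081021-7084055 begins 109 bases past the first *Sxl* 3' end and reaches 1900 bases past the next, so that none of it lies in FBtr0336728. *snf* had 1 peak of 3.42 annotated to its 3' UTR, though its span, X:5309689-5310501, takes in most of the gene. *tra* had 1 of 2.61 at 3L:16590059-16590267, which covers the overlap with *l(3)73Ah*. In *dsx*, 3' UTR peaks of 3.03 and 1.53 lay near the male-type end, and one of 2.05 at 3R:7935008-7935368 was annotated to the female-type FBtr0081760. *tra2* had 2.15 in its 3' UTR and 1.07 in its 5' UTR, and the 4 *her* peaks ran from 0.66 to 2.83.

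**Figure D5:**
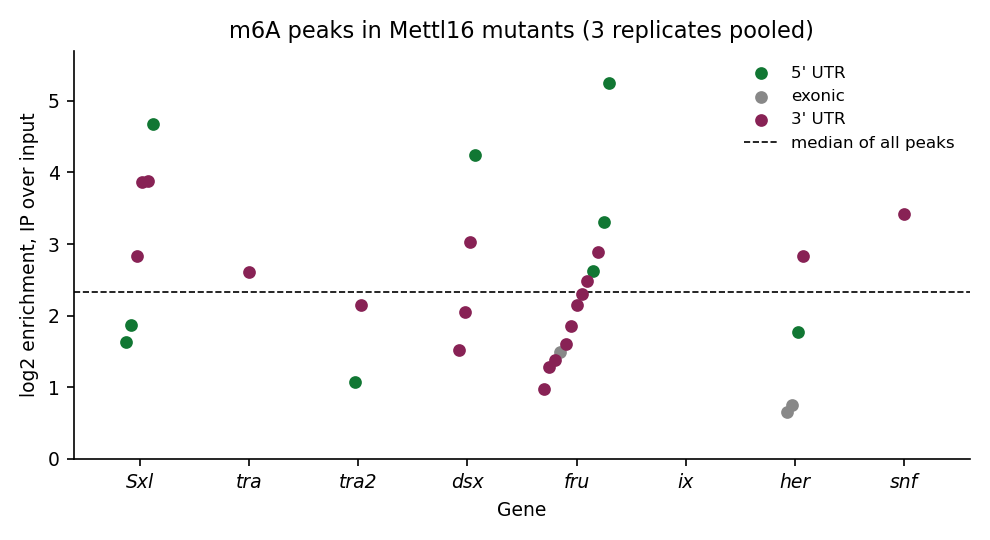
Log2 enrichment of IP over input for each of the 31 peaks by gene in *Mettl16* mutants, coloured by annotation; the dashed line is the median of all peaks, 2.32. The highest peaks of *fru*, *Sxl* and *dsx* are in 5' UTRs, and *ix* has none.

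The deposited comparison of peaks between genotypes lists only rows with an unadjusted P under 0.05. It held 4 peaks of these genes, all annotated to 3' UTRs. The *snf* peak at X:5309689-5310501 had a log2 fold change of 0.44 in mutants (FDR 0.0081). The *Sxl* peak at X:7081021-7084144, the one that lies past the first 3' end, had -0.32 (FDR 0.0141). The *tra2* peak at 2R:14602004-14602242 had -0.59 (FDR 0.083) and the *dsx* peak at 3R:7924922-7925282 had -0.25 (FDR 0.212). All 4 were within 1 of 0, as were 89.5% of the 3088 rows. These values pool 3 replicates and carry no spread, and whether the shares of *Sxl* 3' ends bear on the *Sxl* value was not tested.

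Around the 8 genes, 6 lists of pathway genes held 61 genes, of which 51 were tested. By limma at an adjusted p under 0.05, 12 rose and 5 fell, or 33.3%, where 22.9% of all genes rose and 26.7% fell.

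Of the X chromosome signal to *Sxl*, 7 of 10 genes were tested, 4 rose and 1 fell (median log2 change 0.20). *upd1*, the JAK/STAT ligand among the X-linked signals, fell from 1.47, 1.46 and 1.18 FPKM to 0.806, 0.735 and 0.630 (log2 change -0.46, adjusted p = 0.0052). *Stat92E*, the transcription factor of that pathway, rose from 38.9, 36.0 and 34.9 to 48.4, 45.9 and 45.9 FPKM (0.35, adjusted p = 0.0019). *da*, a bHLH activator of *Sxl*, rose by 0.19, and the repressors *gro* and *emc* by 0.21 and 0.20 (adjusted p 0.0138 to 0.0290 by limma). Without mutant replicate 2 only 1 gene of the list rose, and these last 3 no longer passed. *da* also failed without mutant replicate 1 or *w1118* replicate 2, and *emc* without mutant replicate 3 or *w1118* replicate 1 or 3.

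Among 13 cofactors of Sxl and subunits of the m6A writer complex, 1 rose and none fell (median 0.05). *snRNP-U1-70K*, a U1 protein, rose from 9.13, 8.14 and 8.22 to 10.4, 12.0 and 10.3 FPKM (log2 change 0.33, adjusted p = 0.0091 by limma). With upper quartile scaling 5 of the 13 rose, where 4231 of all 13863 genes tested did. *Mettl3*, the catalytic subunit, was at 5.71, 4.88 and 5.46 FPKM in *w1118* and 4.06, 4.59 and 5.38 in mutants, which overlap (adjusted p = 0.198). *fl(2)d*, the fly homologue of WTAP, had a log2 change of 0.00082 (adjusted p = 0.991).

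Of the 6 SR proteins and kinase that work with Tra and Tra2, 3 rose and none fell (median 0.16). *Doa*, a kinase of SR proteins, rose from 26.4, 24.8 and 25.3 to 32.2, 30.7 and 29.0 FPKM (log2 change 0.25, adjusted p = 0.0082 by limma). *SF2* rose by 0.18 (adjusted p = 0.0409), a call lost when any library other than *w1118* replicate 1 was left out.

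Of 9 targets of Sxl and genes of dosage compensation, 2 rose and none fell (median 0.05). *msl-2*, which Sxl represses in females, was at 6.52, 6.58 and 6.11 FPKM in *w1118* and 6.14, 7.29 and 6.47 in mutants (log2 change 0.04, adjusted p = 0.671). *how*, an RNA-binding protein gene, rose from 23.2, 20.3 and 19.0 to 28.8, 28.2 and 29.0 FPKM (0.44, adjusted p = 0.0018 by limma). Of 10 muscle markers 3 were higher in the same libraries, where 22.9% of all genes tested were, and their part was not tested. *mle*, the helicase of the dosage compensation complex, rose by 0.22 (adjusted p = 0.0182), but not with *w1118* replicate 2 or 3 or mutant replicate 2 left out. *roX1* and *roX2* had log2 changes of 0.05 and 0.03.

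Downstream of *dsx* and *fru*, 11 of 15 genes were tested, 2 rose and 2 fell (median 0.12). *sxe2*, a male-enriched gene of the head, had the largest log2 change among the called genes of the 6 lists, and fell from 15.3, 19.6 and 20.9 to 6.82, 8.35 and 8.47 FPKM (-1.14, adjusted p = 0.00022). *sxe1*, another male-enriched gene of the head, listed as *Cyp4d21*, fell from 28.6, 39.8 and 35.8 to 20.0, 24.9 and 30.2 FPKM, with overlap (-0.46, adjusted p = 0.0434, and not past the threshold without mutant replicate 1 or 2 or *w1118* replicate 2 or 3). *Yp3*, a yolk protein gene that Dsx controls, rose from 1.25, 1.74 and 2.34 to 3.71, 2.81 and 3.32 FPKM (0.64, adjusted p = 0.0088), a low level in both genotypes. *Yp1* and *Yp2* did not pass (0.59 and 0.46, adjusted p 0.171 and 0.202 by limma). The fat body markers given above moved in the same libraries, in both directions, and their part in these values was not tested. *bon* rose by 0.19 (adjusted p = 0.0480), a call kept only without *w1118* replicate 1 among the 6 fits with 1 library left out. Whether *bon* is a target of *dsx* or *fru* was not tested.

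In the germline, 5 of 8 genes of sexual identity were tested, none rose and 2 fell (median -0.25). *Phf7*, a chromatin reader of male germ cells, fell from 2.32, 2.42 and 2.28 to 1.42, 1.78 and 1.61 FPKM (-0.36, adjusted p = 0.0075 by limma). *Tdrd5l*, listed as *CG15930*, fell by 0.30 on the log2 scale (adjusted p = 0.0204), and did not pass without mutant replicate 3 or *w1118* replicate 2. The spermatocyte and spermatid markers given above were lower in the same libraries, and their part in these values was not tested.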

How the data were processed

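Per the labels and methods, paired-end reads of stranded libraries were trimmed (fastp) and mapped to the fly genome (version v107) by HISAT2, and the authors obtained gene and isoform FPKM of the input libraries by StringTie. Deposited beside isoform FPKM is the mean base coverage, a signal the authors did not scale to depth. Its ratio to FPKM, constant in each library, gave the depth, and coverage times length gave read pairs. The authors called and compared peaks with exomePeak over 3 replicates together, and the deposited log2 enrichment, log2 fold changes, p-values and FDR are theirs. Peak starts, counted from 0 in the files, are given from 1. Gene comparisons deposited by the authors (fold changes and p-values) were not used, nor were 9 per-sample columns of the gene table and 18 of the isoform table. The peak list of *w1118* was not analysed here.

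Genes averaging 0.5 FPKM or more were fitted with limma 3.58.1 with trend (R 4.3.3) on log2(FPKM + 1), so changes of low genes are understated. Shares were fitted for isoforms of genes with a summed level of at least 1 FPKM. Class shares used exact permutation tests. The fits were tested on simulated data. Alternatives were another pseudocount, filter, scaling, threshold or transformation, a replicate block, and leaving out each library. Python 3.11.15, pandas 2.3.3, NumPy 2.4.6 and matplotlib 3.10.9 were used. Named genes were the 8 members, up to 5 called genes per list by smallest adjusted p, and, with a mean of at least 0.1 FPKM or a share of at least 5%, the isoforms the results turn on; the 3 genes most correlated with *Sxl* and *snf* were added. *msl-2*, *Mettl3*, *fl(2)d*, *roX1*, *roX2*, *Yp1*, *Yp2*, *Lsp2* and *tobi* were named outside this rule with their values known. The result of 1 list gene is not reported here. Of 131 list entries all matched, 5 through synonyms. Members and lists were chosen with earlier results of these data known.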

Additional observations from a re-analysis of the deposited data

How the results depend on the processing

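The gene test called 6874 genes, between 5838 and 6679 with 1 library left out, and 806 when a log2 change of at least 1 was also asked for. No member passed in these, with another pseudocount or filter, or with the replicate block, and among the alternatives only upper quartile scaling, which moved the median of all genes to 0.07 and the share of calls that rose from 46.1% to 55.8%, made *tra2* and *ix* pass. The share test was less stable. It called 747 isoforms, 332 to 454 with 1 library left out, and 84 with the replicate block, which lost the *Sxl* isoform FBtr0336728. In the separate gene test, the block lost *da*, *SF2*, *mle*, *bon* and *CG15930* among the genes named here. Over the genes tested, same-numbered deviations had correlations of -0.036, -0.061 and -0.027, so no broad pairing by replicate number was seen. A pairing or batch in part of the genes was not tested. Summed by 3' end or by start, alternatives chosen after the data were seen, shares gave 250 and 231 calls, none in these genes. The *tra*, *dsx* and *fru* class differences ranged from -1.23 to 0.76, -4.34 to 1.07 and -16.5 to -8.04 percentage points with 1 library left out. Depth limits isoforms with few read pairs, such as the shorter *tra* isoform.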
